A study of Mus musculus with 6 samples.

Results

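The glycogen genes described here are the 3 glycogen phosphorylases Pygl, Pygm and Pygb and the 6 further genes Gys1, Gbe1, Gyg, Phka1, Phkg1 and Ppp1r3c, which build glycogen or switch its synthesis and breakdown. They were taken by gene symbol from the platform annotation, and every probe set annotated to only 1 of them was used, which gave 15 probe sets of 45101 on the array. All 9 genes had at least 1 probe set, and all 15 probe sets passed the filter on low signals. The genes were picked with earlier results of the same comparison in view, among them the low Pygl signal in the transgenic hearts. Their differences between genotypes are therefore given as a description, with no test.

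Expression was measured in hearts of 6 mice aged 8 weeks, with 1 array per mouse. The 3 DNMTs-Tg mice (replicates 1, 5 and 6) express DNMT3A2, a short isoform of the de novo DNA methyltransferase DNMT3A, together with its inactive partner DNMT3L. They came from FVB-Tg(Ddx4-cre)1Dcas/J females, which express Cre recombinase in the germ line, mated with a male carrying a floxed construct. The 3 wild-type mice (replicates 1, 4 and 6) are labelled only as such, and their strain is not given in the sources used here, nor is the promoter that drives the transgenes. The study asked which heart genes lose expression when the 2 proteins are present throughout the body; DNA methylation was not analysed here.

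Glycogen is a branched store of glucose. Glycogenin (Gyg) primes the chain, glycogen synthase (Gys1 in muscle and heart) extends it and the branching enzyme (Gbe1) branches it. Glycogen phosphorylase releases glucose 1-phosphate from the chain ends and exists as liver (Pygl), muscle (Pygm) and brain (Pygb) isozymes encoded by separate genes. Phosphorylase kinase, with the regulatory alpha subunit Phka1 and the catalytic gamma subunit Phkg1 as its muscle forms, switches phosphorylase on. Protein phosphatase 1, brought to glycogen by targeting subunits such as Ppp1r3c, turns phosphorylase off and synthase on.

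The arrays were on a common scale, with median log2 signals of 5.28 to 5.33. The transgene product Dnmt3l had log2 signals of 12.19 to 12.38 in DNMTs-Tg and 5.17 to 5.48 in wild-type hearts, so the groups were as labelled. Sex-linked RNA was of female type on only 1 array, that of wild-type replicate 4 (Xist at 10.10 against 4.52 to 4.96 elsewhere). Every other array, including all 3 of DNMTs-Tg, was of male type (Eif2s3y at 9.41 to 9.52, against 3.32 in wild-type replicate 4). The labels call 5 of the 6 mice female, so most sex labels conflict with the RNA. Sex by RNA was thus uneven between the groups, and its part in the values below was not tested. The 3' probe set of Gapdh exceeded the 5' one, which reflects RNA integrity, by 0.66 ± 0.12 (log2, SD, n = 3) in DNMTs-Tg and by 0.43 ± 0.06 in wild-type hearts (2-sided exact permutation p = 0.1, the lowest that 3 against 3 arrays allow). For Actb the same excess was 1.12 ± 0.25 in DNMTs-Tg and 1.15 ± 0.09 in wild-type hearts (2-sided exact permutation p = 0.8). The part of RNA integrity in the values below was not tested. The defining cardiomyocyte markers were present on every array. Their list value, the mean log2 signal of the 8 markers relative to wild-type, was -0.34 in DNMTs-Tg replicate 1, -0.10 in replicate 5 and -0.03 in replicate 6, against -0.01 to 0.01 in wild-type hearts. The 10 macrophage markers had a list value of 1.25 in that replicate 1, against -0.25 and -0.10 in replicates 5 and 6 and -0.13 to 0.16 in wild-type hearts. In whole hearts, fewer cells of a type and less RNA per cell cannot be told apart.

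The liver isozyme Pygl was low in all 3 DNMTs-Tg hearts, while the values of the brain isozyme Pygb overlapped between the genotypes. Pygl had log2 signals of 8.10, 8.09 and 8.56 in wild-type replicates 1, 4 and 6 and of 6.24, 4.95 and 5.22 in DNMTs-Tg replicates 1, 5 and 6. The groups did not overlap, and the highest of the DNMTs-Tg signals was that of replicate 1. The means were 8.25 ± 0.27 (SD, n = 3) and 5.47 ± 0.68 (SD, n = 3), a log2 difference of -2.78 ± 0.32 (SE from the limma fit over all probe sets, as for the other members), or 6.87-fold lower. Within its array, the Pygl probe set lay at percentiles 80.4 to 84.6 in wild-type and 44.1 to 61.5 in DNMTs-Tg hearts, so it remained above the 40th percentile that served as the floor for low signals (4.64 to 4.72 on the log2 scale). With 1 array left out, the difference ranged from -3.17 (without DNMTs-Tg replicate 1) to -2.52 (without DNMTs-Tg replicate 5).

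Marker lists of other cell types moved in both directions between the genotypes. The 5 adipocyte markers on the array had list values of -0.54 to -0.25 in DNMTs-Tg and -0.16 to 0.16 in wild-type hearts, with Cidec and Lep at or below the floor on all 6 arrays. That list rested mainly on Adipoq, at 3.29 in DNMTs-Tg, below the floor, and 4.86 in wild-type hearts (group means, log2). The 5 smooth muscle markers had list values of -0.60 to -0.22 in DNMTs-Tg and -0.25 to 0.13 in wild-type hearts, where the ranges overlapped.

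Liver expresses Pygl strongly, and the 6 hepatocyte markers had list values of 0.19 to 0.35 in DNMTs-Tg and -0.04 to 0.04 in wild-type hearts, with Alb and Fgb at or below the floor on all arrays. Ahsg (6.57 against 5.37) and Ttr (6.33 against 5.79) carried that value, while Apoa1 (5.81 against 5.88) and Apoa2 (5.11 against 5.10) overlapped between the groups. The 10 neutrophil markers had list values of 0.43 to 0.46 and -0.14 to 0.18, with Mpo and Mmp8 at or below the floor on all arrays. S100a8 (7.74 against 5.88) and S100a9 (7.51 against 5.37) carried most of it and were the 2 of 8 tested that rose in limma, whereas Ngp stood at 5.17 against 5.38. The 8 fibroblast markers had list values of 0.14 to 0.97 in DNMTs-Tg and -0.21 to 0.28 in wild-type hearts, and replicate 1 had the highest of them. The part of other cell types in the Pygl values was not tested.

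The muscle isozyme Pygm had log2 signals of 11.27, 11.35 and 11.34 in wild-type replicates 1, 4 and 6 and of 10.52, 11.23 and 11.06 in DNMTs-Tg replicates 1, 5 and 6. The groups did not overlap, but the gap between DNMTs-Tg replicate 5 and the lowest wild-type heart was small. The log2 difference was -0.39 ± 0.18 (SE), and without DNMTs-Tg replicate 1 it was -0.18. That heart also had the lowest cardiomyocyte list value, -0.34; its part in the Pygm value was not tested.

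The brain isozyme Pygb had log2 signals of 12.59, 12.59 and 12.56 in wild-type replicates 1, 4 and 6 and of 12.56, 12.39 and 12.77 in DNMTs-Tg replicates 1, 5 and 6. The DNMTs-Tg values lay on both sides of the wild-type range. The log2 difference was -0.0062 ± 0.11 (SE). The 3 isozymes thus had differences of -2.78, -0.39 and -0.0062 on the same arrays. The difference was -2.83 for Pygl under quantile normalization and stayed between -3.20 and -2.52 in the 17 other settings tried, whereas Pygb lay between -0.16 and 0.088. Changes of filter, probe set rule, variance model or threshold could not move either difference, since each gene has 1 probe set.

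**Figure D1:**
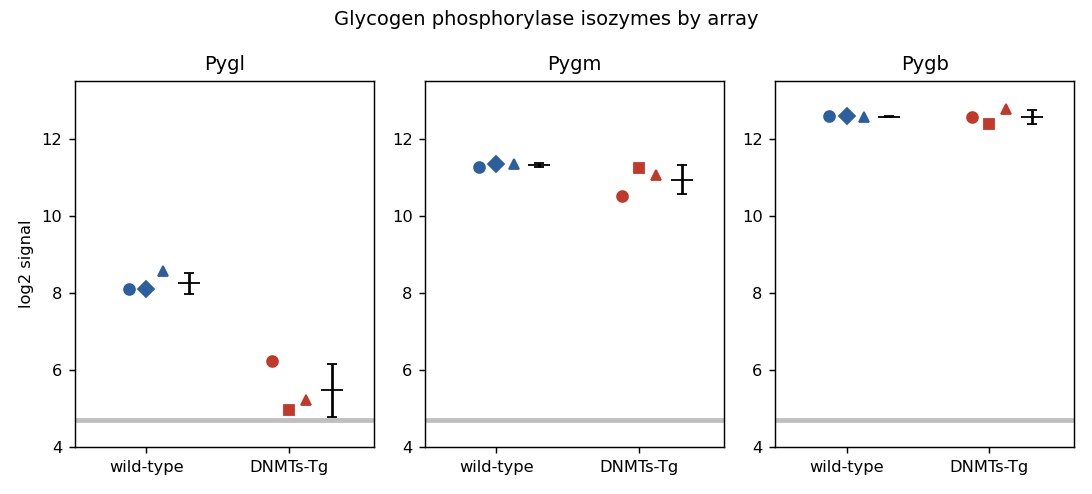
Log2 signal of the 3 glycogen phosphorylase isozymes on each array, by genotype (blue, wild-type; red, DNMTs-Tg; circle, replicate 1; diamond, 4; square, 5; triangle, 6). Black bars give the mean and SD of 3 arrays, and the grey band is the 40th percentile of the arrays. Pygl lies at 4.95 to 6.24 in DNMTs-Tg against 8.09 to 8.56 in wild-type hearts, while Pygb lies near 12.6 in both; levels of different probe sets are not comparable.

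The promoter windows of the 3 isozymes, 250 bases before to 50 bases after the annotated start (RefSeq, GRCm38.p6), are printed because the study looked for genes silenced by added methylation, which in mammals falls mainly on the cytosines of CG dinucleotides. The window of Nhlrc1, a gene of the wider pathway described further on, is shown beside them. Capitals mark each CG, which reads the same on both strands. The windows are chr12:70227634-70227933 (minus strand) for Pygl, chr19:6384158-6384457 (plus strand) for Pygm, chr2:150786546-150786845 (plus strand) for Pygb and chr13:47014801-47015100 (minus strand) for Nhlrc1.
Pygl: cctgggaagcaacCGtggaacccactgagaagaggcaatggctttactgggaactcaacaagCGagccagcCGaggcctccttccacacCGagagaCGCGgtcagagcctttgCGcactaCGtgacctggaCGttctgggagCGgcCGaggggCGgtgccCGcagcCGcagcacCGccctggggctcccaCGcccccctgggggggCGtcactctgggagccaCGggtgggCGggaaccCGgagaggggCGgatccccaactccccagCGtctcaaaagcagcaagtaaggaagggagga
Pygm: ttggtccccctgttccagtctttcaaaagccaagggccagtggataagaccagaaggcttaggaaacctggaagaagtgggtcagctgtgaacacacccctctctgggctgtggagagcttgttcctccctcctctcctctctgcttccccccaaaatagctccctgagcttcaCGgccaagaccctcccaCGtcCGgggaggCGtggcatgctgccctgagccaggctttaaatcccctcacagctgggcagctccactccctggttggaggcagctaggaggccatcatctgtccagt
Pygb: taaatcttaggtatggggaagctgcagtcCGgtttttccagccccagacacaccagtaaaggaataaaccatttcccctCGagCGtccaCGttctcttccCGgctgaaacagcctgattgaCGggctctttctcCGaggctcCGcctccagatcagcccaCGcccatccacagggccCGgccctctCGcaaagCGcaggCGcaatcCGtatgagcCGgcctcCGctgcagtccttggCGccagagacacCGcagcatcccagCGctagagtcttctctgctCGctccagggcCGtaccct
Nhlrc1: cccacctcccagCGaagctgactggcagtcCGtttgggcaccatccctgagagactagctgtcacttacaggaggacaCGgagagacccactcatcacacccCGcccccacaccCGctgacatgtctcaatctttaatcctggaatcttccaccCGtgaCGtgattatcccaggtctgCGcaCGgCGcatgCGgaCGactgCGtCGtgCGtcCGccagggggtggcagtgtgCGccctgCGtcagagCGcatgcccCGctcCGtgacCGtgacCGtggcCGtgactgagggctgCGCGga

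Pygl and Pygb had nearly the same number of CGs in these windows but different expression changes. The Pygl window held 22 CGs, a count reached by 23.1% of all 32851 promoter windows of this length, and the Pygb window held 21, reached by 24.8%. The Pygm window held 4, reached by 68.6%. Of the other members, Ppp1r3c had 26 CGs, Phka1 25, Gyg 22, Gys1 14, Gbe1 14 and Phkg1 2, and the median over all windows was 7. The members with 20 or more CGs thus included Pygl, at -2.78, and also Pygb, Gyg, Phka1 and Ppp1r3c, whose log2 differences by their brightest probe sets lay between -0.34 and -0.0062. At least 1 CG was present in 94.6% of all windows. A count of CGs says nothing about whether they were methylated.

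**Figure D2:**
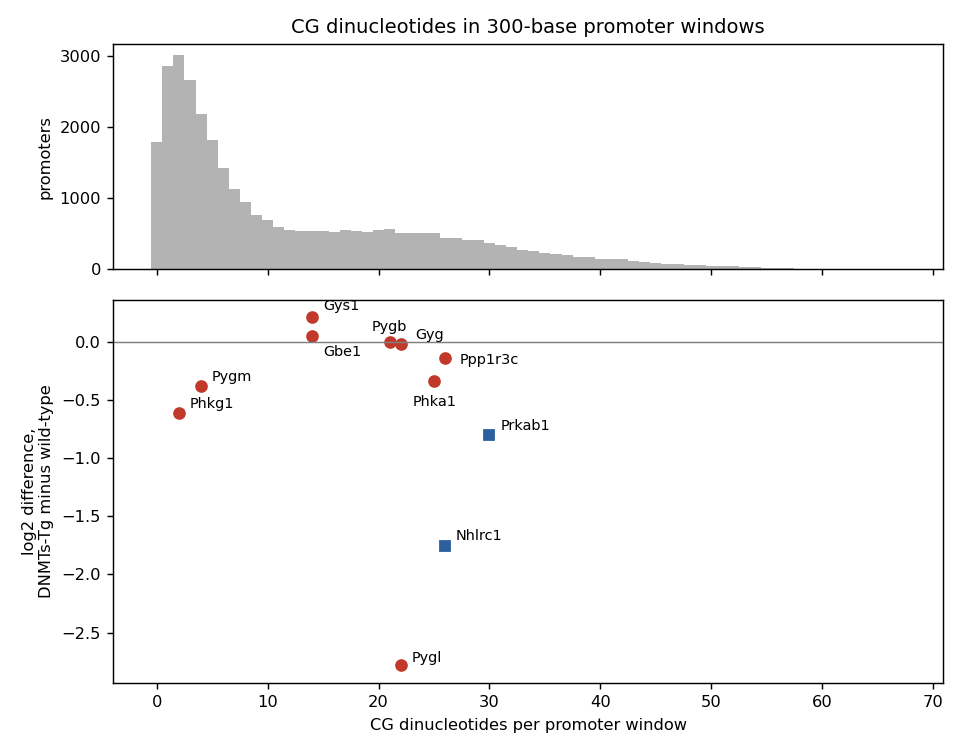
Upper panel, number of RefSeq promoter windows by their count of CG dinucleotides. Lower panel, log2 difference between DNMTs-Tg and wild-type hearts (brightest probe set of each gene) against the same count for the 9 members (red circles) and for Nhlrc1 and Prkab1 (blue squares); Pygl with 22 and Pygb with 21 CGs lie side by side on the horizontal axis but at -2.78 and -0.0062 on the vertical one.

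The enzymes that build glycogen had log2 differences between -0.12 and 0.21 over their 5 probe sets. The brighter Gys1 probe set had log2 signals of 9.74, 9.72 and 9.71 in DNMTs-Tg replicates 1, 5 and 6 and of 9.55, 9.52 and 9.48 in wild-type replicates 1, 4 and 6. The 3 DNMTs-Tg hearts lay close together and above all wild-type hearts, with a log2 difference of 0.21 ± 0.10 (SE). The second Gys1 probe set did not separate the groups, at 6.89 to 7.23 in DNMTs-Tg and 6.88 to 6.96 in wild-type hearts (difference 0.10 ± 0.13, SE) and by its platform suffix has probes that other transcripts share. With the mean of both probe sets the Gys1 difference was 0.16.

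Gbe1 had log2 signals of 8.94, 8.97 and 8.72 in DNMTs-Tg replicates 1, 5 and 6 and of 8.83, 8.80 and 8.86 in wild-type replicates 1, 4 and 6. The groups overlapped, and the log2 difference was 0.049 ± 0.12 (SE). Glycogenin overlapped as well by both of its probe sets, the brighter of which has the same suffix as the second Gys1 probe set. The brighter Gyg probe set lay at 11.64 to 11.78 in DNMTs-Tg and 11.68 to 11.79 in wild-type hearts (-0.024 ± 0.09, SE), and the other at 10.72 to 10.93 and 10.92 to 11.01 (-0.12 ± 0.10, SE).

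Of the phosphorylase kinase subunits, Phka1 was slightly lower by 1 of its 3 probe sets and Phkg1 varied widely among the DNMTs-Tg hearts. The brightest Phka1 probe set had log2 signals of 8.08, 8.02 and 8.17 in DNMTs-Tg replicates 1, 5 and 6 and of 8.55, 8.29 and 8.43 in wild-type replicates 1, 4 and 6. These groups did not overlap (difference -0.34 ± 0.12, SE). The remaining Phka1 probe sets overlapped, with differences of -0.10 ± 0.13 and -0.071 ± 0.15 (SE), and the mean of the 3 gave -0.17. Phka1 lies on the X chromosome, and wild-type replicate 4, the array with Xist RNA, had the lowest wild-type signal by the brightest Phka1 probe set only. By the others it had 8.16, between 8.22 and 8.05 in replicates 1 and 6, and 6.63, against 6.63 and 6.31. Without wild-type replicate 4 the difference by the brightest probe set was -0.40.

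Phkg1 had log2 signals of 3.72, 5.40 and 6.82 in DNMTs-Tg replicates 1, 5 and 6 by its brighter probe set, and of 6.06, 6.02 and 5.71 in wild-type replicates 1, 4 and 6. Replicate 1 lay below the floor and replicate 6 above every wild-type heart, and the second probe set showed the same order, with 3.81, 5.08 and 6.52 against 5.70 to 5.83 in wild-type hearts. The SD was 1.55 in DNMTs-Tg and 0.19 in wild-type hearts for the brighter probe set (n = 3 each). The difference between genotypes, -0.62 ± 0.64 (SE), was no larger than that spread, and it was 0.18 without DNMTs-Tg replicate 1 and -1.37 without DNMTs-Tg replicate 6. By its platform suffix the second probe set may also measure other transcripts.

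The phosphatase targeting subunit Ppp1r3c also varied among the DNMTs-Tg hearts, with replicate 6 as the low one. Its brighter probe set had log2 signals of 11.85, 11.47 and 10.56 in DNMTs-Tg replicates 1, 5 and 6 and of 11.49, 11.55 and 11.26 in wild-type replicates 1, 4 and 6. The second probe set placed the hearts in the same order within DNMTs-Tg, at 7.83, 7.61 and 6.30. The difference was -0.14 ± 0.29 (SE) for the brighter probe set and -0.40 ± 0.36 (SE) for the other. Without DNMTs-Tg replicate 6 the brighter one differed by 0.22. Phkg1 was therefore lowest in DNMTs-Tg replicate 1 and highest in replicate 6, and Ppp1r3c was highest in replicate 1 and lowest in replicate 6.

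**Figure D3:**
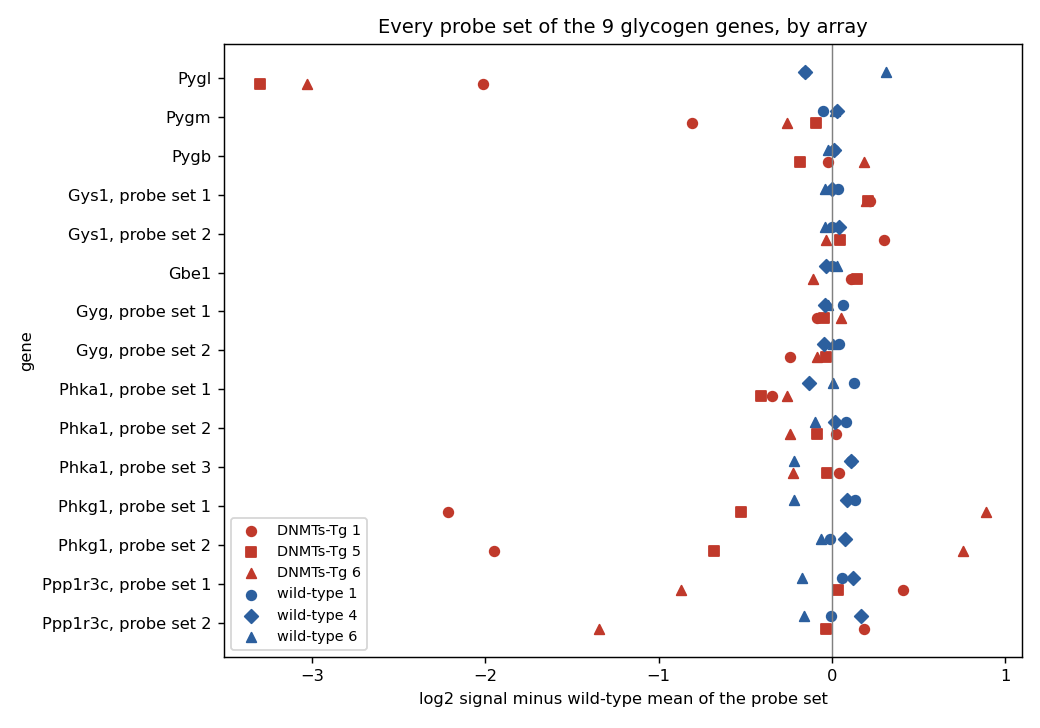
Log2 signal of each of the 15 probe sets on each array, relative to the wild-type mean of that probe set (blue, wild-type; red, DNMTs-Tg; symbols give the replicate). Where a gene has several probe sets they are numbered from the brightest. Pygl alone has all DNMTs-Tg hearts more than 2 units below wild-type (-3.30 to -2.01), and Phkg1 spreads from -2.21 to 0.89.

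Over the 9 genes, each by its brightest probe set, the median log2 difference was -0.14, with 7 of 9 below 0. Over all 13634 genes tested the median was 0.0055, with 6710 below 0. In the limma fit over all genes, 1 of the 9 members (Pygl) passed an adjusted p of 0.05, beside 5.39% of all genes tested; in the fit over single probe sets it was again that of Pygl alone, beside 2.11% of all probe sets. The groups did not overlap for 4 of the 9 (Pygl, Pygm, Gys1 and Phka1), beside 34.9% of all genes. Since the members were picked from this comparison, nothing is read from these counts. The SD among DNMTs-Tg hearts was larger than that among wild-type hearts for 7 of the 9 members, and for 71.6% of all genes.

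The genes whose arrays were most like those of Pygl were sought among the other 13633 genes by the root mean square distance of log2 signals, each relative to its own wild-type mean, over the 6 arrays. The nearest were 2210016F16Rik (distance 0.35), the acylpeptide hydrolase gene Apeh (0.41), the secreted C1q/TNF-related protein gene C1qtnf4 (0.44), Shisa3 (0.44) and the fibroblast growth factor gene Fgf16 (0.52). C1qtnf4, Shisa3 and Fgf16 lay at or below the floor on all 3 DNMTs-Tg arrays, so their distances and their order are uncertain. Apeh had DNMTs-Tg values of -2.73 to -2.70, a much narrower range than the -3.30 to -2.01 of Pygl. No phosphorylase or other glycogen gene was among these 5. The distance depends mostly on the size of the fall, and no other glycogen gene tested here fell as far as Pygl. Their absence therefore adds nothing to the differences already given.

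Outside the 9 members, 45 genes of the pathway in 5 lists were examined, of which 37 were tested. These lists too were chosen with earlier results of these data known, which limits what their tests can show. In DNMTs-Tg hearts 2 of the 37 fell and 0 rose (limma, adjusted p under 0.05), beside 3.15% of all genes that fell and 2.24% that rose. An unadjusted p under 0.05 was found for 9 of the 37, beside 26.0% of all genes. The groups did not overlap for 11 of the 37 (29.7%, against 34.9% of all genes), and the median log2 difference was -0.0083. Those called made up 5.41% of the 37, beside 5.39% of all genes tested.

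The clearest change among them was a fall of Nhlrc1, which encodes malin, a ubiquitin ligase that acts with the glycogen phosphatase laforin; loss of either protein lets abnormal glycogen build up in Lafora disease. Nhlrc1 had log2 signals of 5.81, 5.82 and 6.05 in DNMTs-Tg replicates 1, 5 and 6 and of 7.66, 7.68 and 7.62 in wild-type replicates 1, 4 and 6. Each group lay within a narrow range, far from the other. Nhlrc1 fell by 1.75 ± 0.11 on the log2 scale (SE, n = 3 per group; limma, adjusted p = 0.000947). It was called with any 1 array left out, with differences of -1.83 to -1.71. Its promoter window, printed above, held 26 CGs, a count reached by 16.9% of all windows.

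In the same list of 10 tested genes, which holds the targeting and catalytic subunits of protein phosphatase 1 and the Lafora disease genes, Nhlrc1 was the 1 gene past the threshold. An unadjusted p under 0.05 was found for 2 of the 10, beside 26.0% of all genes. The other of these was Epm2a, the laforin gene, named here after its values were seen. Epm2a had 5.66, 5.68 and 6.05 in DNMTs-Tg replicates 1, 5 and 6 against 6.30 to 6.35 in wild-type hearts, without overlap (difference -0.52 ± 0.14, SE, limma, adjusted p = 0.0740). Its second probe set lay below the floor on all arrays, overlapped between the groups and differed by -0.0075. The list's median log2 difference was 0.09, and 4 of its 10 genes lay below 0.

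Among 11 tested kinase genes that act on glycogen enzymes, Prkab1, the beta 1 subunit of the AMP-activated protein kinase, fell. Its DNMTs-Tg signals (log2) read 8.30, 8.51 and 8.26 for replicates 1, 5 and 6, and the wild-type signals 9.37, 8.90 and 9.22 for replicates 1, 4 and 6. It fell by 0.80 ± 0.15 on the log2 scale (SE; limma, adjusted p = 0.0298), and its second probe set differed by -0.63. The call was lost without DNMTs-Tg replicate 5 (adjusted p = 0.0798), without wild-type replicate 1 (adjusted p = 0.127) and without wild-type replicate 6 (adjusted p = 0.118), with limma in each case. Other subunits of the same kinase went in both directions and are named here after their values were seen. Prkaa1 differed by 0.51 ± 0.14 (SE, limma, adjusted p = 0.0777) and Prkaa2 by -0.29 ± 0.10 (SE, limma, adjusted p = 0.129). The list had a median of -0.0083, with 0 genes rising and 5 at an unadjusted p under 0.05, beside 26.0% of all genes.

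The remaining 3 lists held no gene past the threshold in limma. Of the 6 tested core enzymes and glycogen-binding proteins, 1 had an unadjusted p under 0.05, beside 26.0% of all genes. That 1 was Stbd1, which tethers glycogen to membranes. Stbd1 had log2 signals of 7.99, 6.50 and 5.59 in DNMTs-Tg replicates 1, 5 and 6 and of 4.31, 4.88 and 4.43 in wild-type replicates 1, 4 and 6, of which 2 lay at or below the floor. The groups did not overlap, and the difference was 2.15 ± 0.55 (SE, limma, adjusted p = 0.0694). It passed without DNMTs-Tg replicate 1 (1.50, limma, adjusted p = 0.0298) and without DNMTs-Tg replicate 6 (2.70, limma, adjusted p = 0.0178). It did not pass without DNMTs-Tg replicate 5 (2.25, limma, adjusted p = 0.162) or without any of the wild-type arrays (limma, adjusted p = 0.167 to 0.212). Over all genes, 447 rose and 620 fell without DNMTs-Tg replicate 1, and 815 and 789 without DNMTs-Tg replicate 6. With all arrays these counts were 306 and 429. Replicate 1, with the highest Stbd1 signal, also had the macrophage list value of 1.25, whose part was not tested. The gene next in order of p, Pgm2l1, an enzyme related to phosphoglucomutases, differed by -0.46 (limma, adjusted p = 0.268).

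Of the 3 other phosphorylase kinase subunits tested, all had groups without overlap, beside 34.9% of all genes, and 1 had an unadjusted p under 0.05, beside 26.0%. Of these, 2 were lower and 1 was higher in DNMTs-Tg hearts. The liver alpha subunit gene Phka2, also X-linked, differed by -0.27 ± 0.10 (SE, limma, adjusted p = 0.166). Its further probe sets, below the floor on all arrays, differed by 0.036 and -0.040. The beta subunit gene Phkb differed by -0.31 ± 0.13 (SE, limma, adjusted p = 0.194). The liver gamma subunit gene Phkg2 went the other way, at 7.22 to 7.26 in DNMTs-Tg and 6.97 to 7.18 in wild-type hearts (difference 0.14 ± 0.11, SE, limma, adjusted p = 0.461), and is named here after its values were seen. Of 7 tested genes for glucose entry and glucose 6-phosphate, 0 had an unadjusted p under 0.05. The glucose transporter gene Slc2a1 differed by 0.59 ± 0.36 (SE, limma, adjusted p = 0.335) and the hexokinase gene Hk2 by -0.24 ± 0.15 (SE, limma, adjusted p = 0.344).

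**Figure D4:**
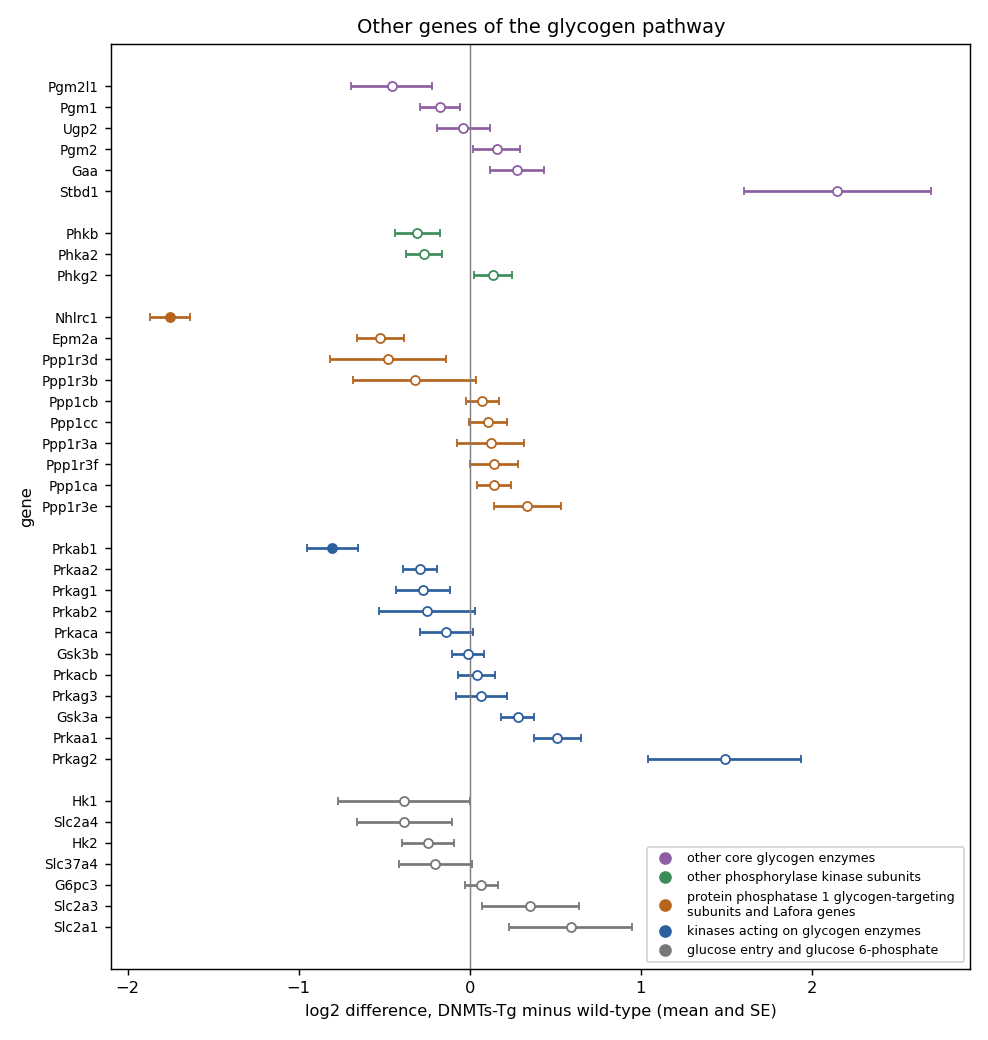
Log2 difference between DNMTs-Tg and wild-type hearts with its SE (n = 3 per group) for the 37 tested pathway genes that are not members, grouped and coloured by list. Filled symbols passed limma's adjusted p of 0.05: Nhlrc1 at -1.75 and Prkab1 at -0.80. Stbd1 at 2.15 and Prkag2 at 1.49 lie farthest to the right and did not pass.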

How the data were processed

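Groups, replicate numbers and age were taken from the sample labels. The authors deposited 1 log2 signal per probe set and array for 45101 probe sets; the log2 scale was inferred from values of 2.06 to 14.7, and how they were background-corrected and normalized is not given in the sources used here. RNA was labelled by in vitro transcription for Affymetrix arrays, per the labels' protocols. No detection calls were used.

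Symbols came from the platform annotation, updated through gene identifiers to RefSeq (GRCm38.p6), and 34945 probe sets had 1 symbol. Probe sets above the 40th percentile of their array on at least 3 of 6 arrays were kept, and of these the one with the highest mean stood for its gene, giving 13634 genes. Genotypes were compared 2-sided with limma 3.58.1 in R 4.3.3 (eBayes with a trend), with Benjamini-Hochberg adjustment over all genes and a threshold of 0.05. The SEs of members come from the same fit over all 45037 probe sets without the filter, 64 control probe sets left out. The steps were tested on simulated data. CGs were counted in RefSeq promoter windows, all 9 members matched.

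All members were described, with each probe set. From each pathway list up to 6 genes past the threshold were named, otherwise the 2 with the smallest p, and 5 genes most like Pygl. The members and lists were chosen with earlier results of these data known. The lists named 45 further genes, of which 40 had a probe set of their own; the others were not analysed here. Alternatives were other normalizations, filters, probe set rules, variance models, array weights and thresholds, the label number as a block, and leaving out each array. The number of arrays limits the precision. Marker lists not given with their values in the results were those for skeletal muscle fibres (0.01 to 0.25 in DNMTs-Tg, -0.15 to 0.15 in wild-type hearts), astrocytes and neurons (-0.21 to 0.25, -0.11 to 0.13), endothelium (0.04 to 0.29, -0.03 to 0.04) and erythroid cells (-0.58 to 1.02, -0.30 to 0.60). The skeletal muscle value rested on Acta1 (mean 14.24 in DNMTs-Tg, 12.04 in wild-type hearts), while Tnni2 (5.35, 5.82) and Mylpf (5.16, 5.42) were lower. Of its 8 markers, 4 lay at or below the floor on all arrays, as did 3 of the 6 for astrocytes and neurons. The endothelial value rested mainly on Vwf (9.93, 8.54), while Kdr, Tek and Emcn had lower means. The erythroid list had 2 genes on the array, with Hba-a1 at or below the floor.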

Additional observations from a re-analysis of the deposited data

How the results depend on the processing

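Pygl and Nhlrc1 kept their direction in all 17 other settings (Pygl -3.20 to -2.52, Nhlrc1 -1.83 to -1.70), and Nhlrc1 was called in each of the 6 fits with 1 array left out. Other filters, probe set rules, variance models and thresholds could not change these differences, since each gene has 1 probe set. The Pygl values are a description, since it was picked from this comparison. Over all genes, 306 rose and 429 fell. These counts were 2328 and 2494 with array weights (whose fit stopped before convergence), 45 and 90 at a threshold of 0.01, 768 and 887 at 0.10, and with 1 array left out 44 to 815 and 79 to 789. Members called numbered 1, against 3 with array weights (Pygl, Gys1 and Phka1). The other pathway genes that fell numbered 2, against 9 with array weights, 1 at 0.01 and 1 to 3 with 1 array left out. Those that rose numbered 0, against 5 with array weights, 2 at 0.10 and 0 to 3 with 1 array left out. Over probe sets without the filter, 360 rose and 592 fell, against 54 to 1254 and 113 to 1175 with 1 array left out.

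The genotypes share 2 label numbers, 1 and 6. The deviations of same-numbered arrays from their group means correlated at -0.054 and -0.080, and those of the crossed arrays at 0.068 and 0.11. With only 2 pairs, these values cannot decide whether the numbers mark pairs. The main fit did not take them as pairs. With the number as a replicate block, which leaves 1 residual degree of freedom, 1 gene rose and 0 fell over all genes, 0 members and 0 pathway genes were called in either direction, and the differences were -2.60 for Pygl, -1.70 for Nhlrc1 (limma, adjusted p = 0.174) and -1.01 for Prkab1 (limma, adjusted p = 0.250). Signals near the 40th percentile limit what can be said of the size of the Phkg1, Stbd1 and Pygl differences. For Pygl these were the signals of DNMTs-Tg replicates 5 and 6, at 4.95 and 5.22.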

Other observations

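Prkag2, the gamma 2 subunit of the AMP-activated protein kinase, in which mutations cause glycogen storage in the heart, was looked at after its values were seen. Its DNMTs-Tg signals (log2) read 10.28, 9.03 and 8.27 for replicates 1, 5 and 6, and the wild-type signals 7.71, 7.68 and 7.72 for replicates 1, 4 and 6. The groups did not overlap, and the difference of 1.49 ± 0.45 (SE) did not pass (limma, adjusted p = 0.10). It passed without DNMTs-Tg replicate 1 (0.95, limma, adjusted p = 0.0435) and without DNMTs-Tg replicate 6 (1.95, limma, adjusted p = 0.0221). It did not pass without DNMTs-Tg replicate 5 (1.57, limma, adjusted p = 0.193) or without any of the wild-type arrays (limma, adjusted p = 0.229 to 0.249). The fits in which it passed were those that also called more genes over all, as given for Stbd1. Of its further probe sets, 2 differed by 1.50 and 1.46 and a dim one by -0.097. Stbd1 had the same order of the 3 DNMTs-Tg hearts, and so did Ppp1r3c, whereas Phkg1 had the opposite order. Among other pathway genes, Slc2a1, Hk1 and Prkab2 also had the first order, and Ppp1r3d, Prkag1 and Prkaca the opposite one. Few orders of 3 hearts are possible, and they were compared after the values were seen. Nothing is therefore read from a shared order.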
